A study of Homo sapiens with 7 samples.

Results

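Replication timing in U2OS, a human adherent line derived from an osteosarcoma, was measured by setting DNA made in early S phase against DNA made in late S phase on the same array. The description rests on the 2 arrays titled automated, with the 2 arrays titled manual as checks, so that 4 of the 7 samples of the series were used. The series presents a quick procedure for replication timing, and its other 3 arrays carry a different cell line. On every U2OS array, cells had taken up the thymidine analogue bromodeoxyuridine (BrdU, 50 µM) for 2 h, were fixed in 75% ethanol, stained for DNA content with propidium iodide and sorted, 80000 in all, into an early (S1) and a late (S2) fraction. Nascent DNA was recovered with an antibody to BrdU and amplified over the whole genome, and the early fraction was labelled with Cy3 (green) and the late fraction with Cy5 (red). The cells carried no named genetic change or further treatment, and ATCC conditions were used for growth. The labels do not say which step was done by hand or by machine, and they do not say whether arrays came from separate cultures. P-values therefore measure only the spread between these arrays, which may be technical. No array had its dyes swapped, so a dye effect and timing cannot be told apart by design. The unit of description was the log2 of green over red, set to 0 at the median autosomal probe of each array: positive values are earlier and negative values later than that probe. The design held 161223 autosomal probes at a median spacing of 13 kb, which gave 22949 windows of 100 kb with at least 3 probes and 8498 genes with at least 3 probes.

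In each S phase a cell copies its genome in a set order. Large stretches of chromosome fire their replication origins together, and these replication domains are separated by transition regions in which forks travel from earlier into later DNA. Early domains usually lie in the nuclear interior and hold most active genes, whereas late domains are gene-poor, often lie at the nuclear lamina, and hold many genes used only in specialised tissues. Because timing differs between cell types, a profile describes the line that was sorted. U2OS keeps its telomeres without telomerase, by the alternative lengthening pathway, and has a rearranged genome. The copy number of a locus enters both channels alike.

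The automated arrays were brighter than the manual ones. The median green signal lay 137 to 204 units above the negative-control spots on the automated arrays and 46.2 to 48.4 units above them on the manual arrays. The red channel was well above background at 96.5% and 97.0% of autosomal spots on the automated arrays, against 61.2% and 41.4% on the manual arrays. Across windows the automated arrays correlated at r = 0.981 with each other (3.40% of windows of opposite sign), the manual arrays at 0.935 (7.0%), and automated with manual arrays at 0.910 to 0.915. These correlations run along a shared genome and are descriptions. Both manual arrays lay on a single slide and each automated array on its own, so handling and slide cannot be told apart.

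The qPCR controls that the study used to check its sorted fractions fell on opposite sides of 0 on all 4 arrays. BMP1, the early control, which encodes a secreted procollagen protease, had 3 probes on chromosome 8 with means of 1.87 and 1.26 on the automated arrays and 1.03 and 0.74 on the manual arrays. DPPA2, the late control, a gene active in pluripotent cells, had 2 probes between chr3:109020746-109028224 (hg19) with means of −1.95 and −1.89 on the automated and −2.34 and −1.71 on the manual arrays. The groups did not overlap at BMP1, where the manual arrays gave the lower values. The automated mean of BMP1 was 1.56 ± 0.43 (SD, n = 2) and moved by more than 1.5 times to 0.95 with another background correction and to 0.63 with none. DPPA2 stood at −1.92 ± 0.045 (SD, n = 2).

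Most of the U2OS genome was clearly early or clearly late, and intermediate values were less frequent. The window values of the automated arrays formed a tall early peak near 1.38 and a broader late peak near −2.13, with fewer windows between them: a quarter-unit step held up to 2378 windows at the early peak, 1353 at the late peak and 835 at the lowest point between. The late side reached further from 0, with the 1st percentile at −2.98 and the 99th at 1.78. Of all windows, 19.5% lay at −2 or below against 0.131% at 2 or above. These distances depend on the choice of 0 and on background correction. The 12 earliest and 12 latest genes (below) lay at 2.41 to 2.71 and −2.91 to −2.67 with centring on the mean. Without background correction they lay at 0.87 to 1.62 and −1.78 to −1.4. Only 15.4% of windows lay within 0.5 of 0. The manual arrays had the same pair of peaks, with late peaks at −1.38 and −1.88 and fewer windows at −2 or below (10.6% and 13%).

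**Figure D1:**
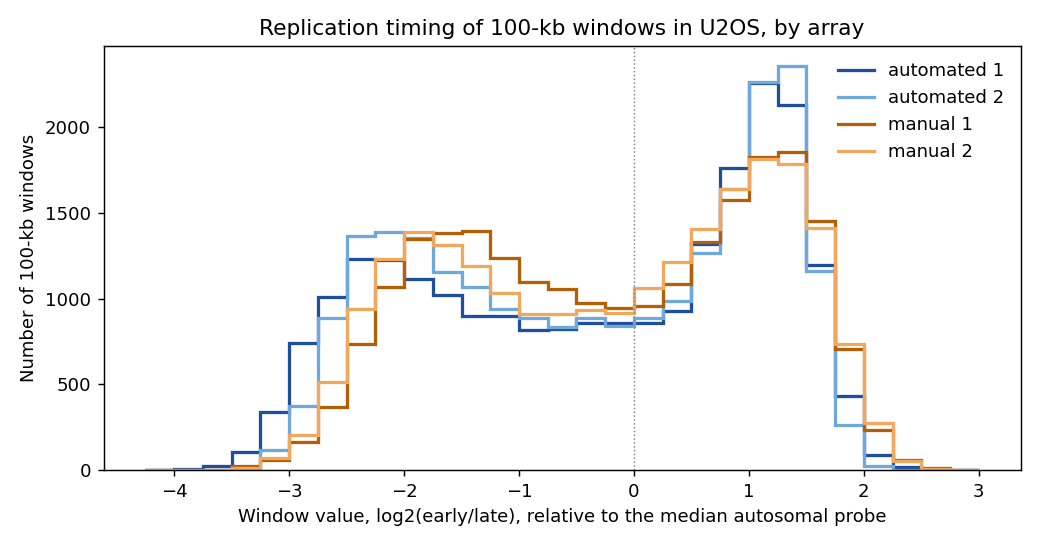
Number of 100-kb windows (vertical axis) at each window value, log2(early/late) relative to the median autosomal probe (horizontal axis), for the 4 U2OS arrays. All 4 lines have an early peak between 1 and 1.5 and a lower, wider late peak. The late peak of the automated arrays, at −2.38 and −2.13, lies further out than that of the manual arrays.

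In a limma fit of the automated arrays against 0, 91.1% of the 22949 windows passed an adjusted p under 0.05. Early calls made up 43.0% of windows (9876) and late calls 48.1% (11033). With a mean of at least 1 in size as a further condition, 26.9% of windows were early and 37.7% late. Since 0 is the median probe of each array, a split near even was largely set by the centring. Which kind was more frequent depended on the setting. Early calls made up 47.2% of all calls here, 42.8% with 250-kb windows, 51.2% after centring on the mean probe, 54.3% with at least 5 probes per window and 54.8% with 50-kb windows. Early windows carried 7.52 probes on average and late windows 6.07. The manual arrays, which the calls did not use, both had the same sign in 93.2% of early and 91.0% of late windows. Both had the opposite sign in 218 early and 368 late windows. For windows at least 1 from 0, both manual arrays had the same sign in 98.2% of early and 97.8% of late windows.

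The highest and lowest windows were chosen by rank and are given as a description. The window chr9:137200001-137300000, which covers part of RXRA, a nuclear receptor for retinoids, stood at 2.43 and 2.25 on the automated arrays, 1.26 on manual array 1 and −0.34 on manual array 2. The manual arrays therefore did not agree on its sign. The window chr1:6300001-6400000, with the acyl-CoA thioesterase gene ACOT7 and the orphan receptor gene GPR153, stood at 2.43 and 2.20 on the automated and at 1.68 and 0.82 on the manual arrays. The lowest window, chr5:45000001-45100000, held no gene name that matched RefSeq and read −3.80, −3.91, −2.62 and −2.94 on automated arrays 1 and 2 and manual arrays 1 and 2. The next, chr18:36800001-36900000, also without a matched name, read −3.57, −3.53, −2.32 and −2.42. Both late windows were below −2 on all 4 arrays.

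Chromosomes differed widely in mean timing. Chromosome 22 was the earliest autosome, at 0.92 on both automated arrays and 0.95 and 0.76 on the manual arrays, and 85.7% of its 328 windows were called early. Chromosome 17 followed (0.64 and 0.65 on the automated arrays, 0.75 and 0.61 on the manual arrays), then chromosome 19 (0.50 and 0.52, then 0.40 and 0.29). These are small, gene-dense chromosomes, with 1.61, 1.78 and 2.51 gene names per window in the same order, against 1.11 over all windows. Their order, 22, 17, 19, was the same on all 4 arrays.

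Chromosome 4 was the latest autosome, at −1.01 and −0.95 on the automated and −0.77 and −0.73 on the manual arrays, with 67.0% of its 1474 windows called late. Chromosome 13 came next from the late end (−0.92 and −0.88, then −0.53 and −0.54). It had 0.72 gene names per window, the lowest of the 22 autosomes. Chromosome 8 stood at −0.81 and −0.79 on the automated and −0.52 and −0.55 on the manual arrays, chromosome 18 at −0.71 and −0.69, then −0.52 and −0.49, and chromosome 6 at −0.71 and −0.69, then −0.42 and −0.40. Neighbours among chromosomes 7, 6 and 18 did not differ by more than the SDs of each pair over the automated arrays, combined as if independent. The gap between chromosomes 22 and 4 was 1.90 on the mean of the automated arrays, 1.61 on that of the manual arrays and 1.13 without background correction.

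Size alone did not order the chromosomes. Chromosome 21, the autosome with the fewest windows (309), stood at −0.41 ± 0.024 (SD, n = 2), while chromosome 1, among the largest, was near 0 at −0.017 ± 0.011. Chromosomes 15, 20 and 16 had small positive means of 0.097, 0.091 and 0.051. In all, 6 autosomes were positive and 14 negative on all 4 arrays. Chromosomes 1 and 11 were negative on both automated arrays and positive on both manual arrays, with values from −0.028 to 0.11. Of the 21 neighbouring pairs in the order, 10 kept their order on all 4 arrays. In 19 the gap exceeded the SDs of the 2 chromosomes over the automated arrays, combined as if independent. Across the 22 chromosomes, mean timing correlated at r = 0.816 with gene names per window and at r = 0.817 with probe GC. The points share the same arrays, and gene number and GC rise together.

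**Figure D2:**
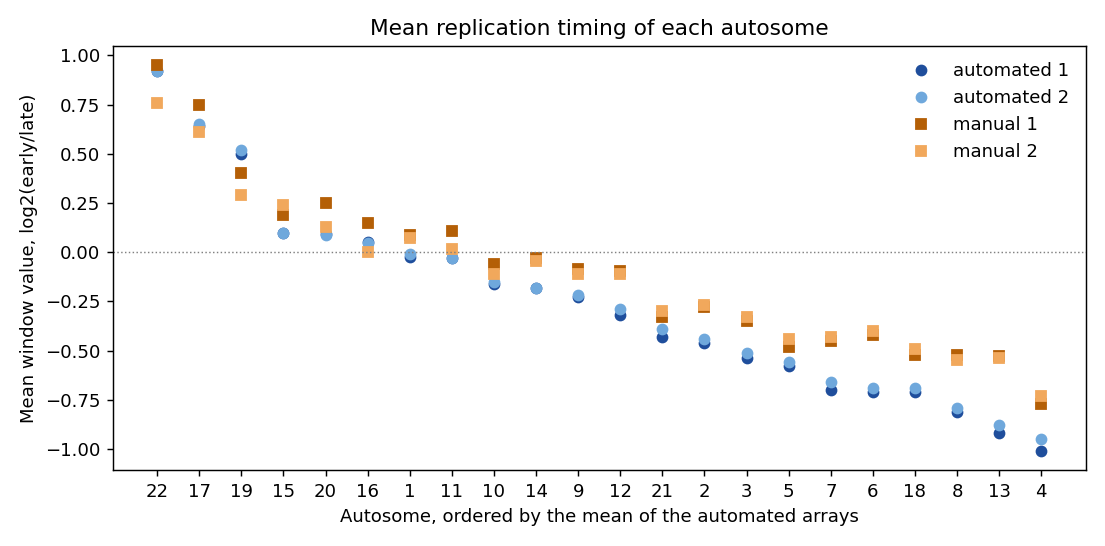
Mean window value, log2(early/late), of each autosome (vertical axis) on each of the 4 arrays (points), with autosomes in order of the automated mean (horizontal axis). Chromosomes 22, 17 and 19 stand apart at the early end, and chromosome 4 lies lowest on all 4 arrays. From chromosome 21 to the late end the automated arrays lie below the manual arrays.

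Runs of windows of a single sign, after a running median over 3 windows and merging of runs under 3 windows, divided the autosomes into 471 early and 517 late domains. Late domains were larger in this setting. Early domains had a median of 1.5 Mb (quartiles 0.8 and 2.8 Mb) and together spanned 1137 Mb. Late domains had a median of 1.8 Mb (quartiles 0.9 and 3.7 Mb) and spanned 1456 Mb. A change of sign closed both sides of 412 early and 382 late domains, with medians of 1.4 and 1.7 Mb. The rest were cut at a gap or a chromosome end. There were 53 early and 81 late domains over 5 Mb. The late median exceeded the early median on each array alone: 1.8 against 1.6 Mb and 1.7 against 1.5 Mb on the automated arrays, and 1.5 against 1.35 Mb and 1.5 against 1.3 Mb on the manual arrays. The order turned with 50-kb windows, where the medians were 1.33 Mb early and 0.95 Mb late, and with dim probes dropped, at 1.5 Mb early and 1.4 Mb late. The manual arrays gave more and smaller domains, 568 early and 611 late. Without smoothing and merging the number rose from 988 to 1511, with medians of 0.8 Mb early and 1.0 Mb late.

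Boundaries were placed closely by both automated arrays. Of the 860 boundaries on automated array 1, 92.6% lay within 200 kb of a boundary on automated array 2 and 60.7% at the same window. Of the 879 boundaries of the automated mean, 81.3% lay within 200 kb of a boundary of the manual mean. Both manual arrays had the sign of the domain in 94.1% of early and 94.6% of late domains. The domains where they did not were short, with medians of 0.4 Mb early and 0.5 Mb late.

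Domain level rose in size with domain length. Early domains of up to 1 Mb had a median level of 0.49 (n = 163), those of 1 to 2 Mb 0.88 (n = 139), those of 2 to 5 Mb 1.04 (n = 116) and those over 5 Mb 1.17 (n = 53). Late domains of the same classes had medians of −0.74, −1.30, −1.58 and −1.84 (n = 152, 129, 155 and 81). The manual arrays, which did not set the boundaries, followed the same order in both kinds, from 0.67 to 1.13 early and from −0.75 to −1.44 late. Windows near a boundary, where the profile crosses 0, make up more of a short domain, and their part in its level was not tested. Gene density rose with size in early domains, from a median of 7.14 to 11.8 gene names per Mb between the shortest and the longest class. It fell in late domains, from 3.0 to 2.24.

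**Figure D3:**
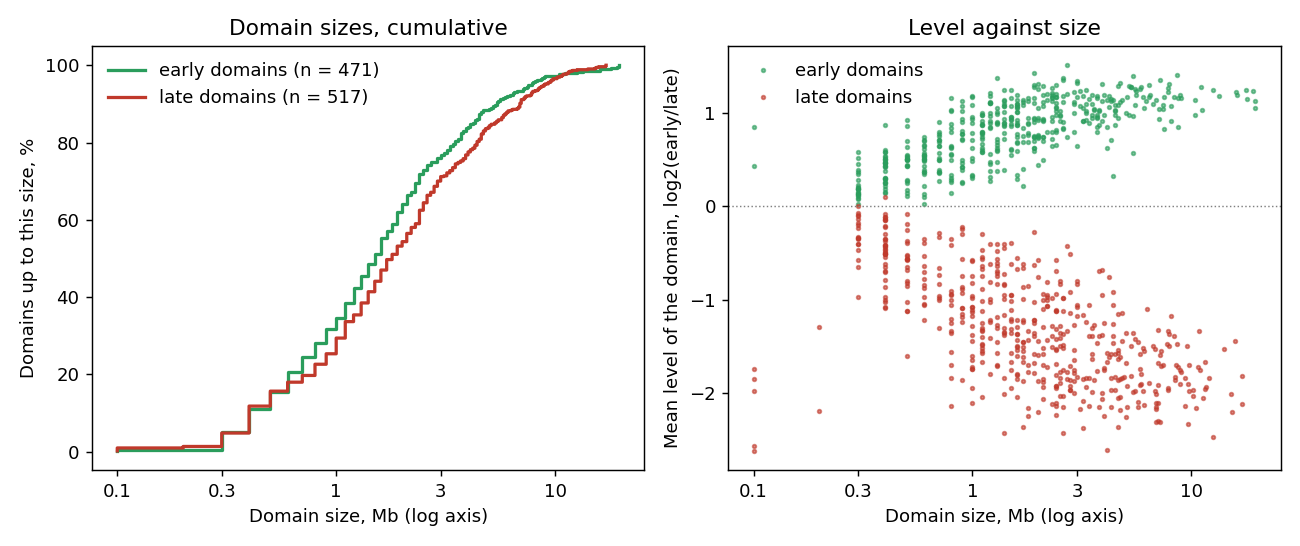
Left: share of early (n = 471) and late (n = 517) domains up to a given size in Mb (log axis). Right: mean level of each domain on the automated arrays, log2(early/late), against its size; each point is a domain. At this window size late domains are shifted to larger sizes, with medians of 1.8 and 1.5 Mb (the order turned with 50-kb windows and without dim probes), and the smallest domains lie nearest to 0 apart from a few short stretches between gaps.

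The longest early domain, chr15:62200001-81800000, spanned 19.6 Mb at 1.15 and 1.11 on the automated and 1.1 and 1.15 on the manual arrays. It held 177 gene names, among them NEO1, a netrin receptor, MYO9A, an unconventional myosin, and MAP2K5, a kinase of the ERK5 pathway. An early domain of the same length, chr19:200001-19800000, read 1.04, 1.07, 0.79 and 0.61 on automated arrays 1 and 2 and manual arrays 1 and 2. It covered most of the short arm of chromosome 19 with 464 gene names, 23.7 per Mb, including INSR, the insulin receptor, DNM2, a dynamin, and CACNA1A, a neuronal calcium channel. The early domain chr1:15200001-34300000, of 19.1 Mb, read 1.23 on both automated arrays and 1.22 and 1.04 on the manual arrays. It held 251 gene names, including the ephrin receptor EPHB2 and the translation factor EIF4G3.

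The longest late domain, chr13:56400001-73500000, spanned 17.1 Mb and held 13 gene names, 0.76 per Mb. It read −2.24 and −2.0 on the automated arrays and −1.35 and −1.49 on the manual arrays, without overlap between the groups. Its genes included the protocadherins PCDH9 and PCDH17, which encode adhesion proteins of neurons, and DACH1, a developmental transcription factor. A late domain of 17.0 Mb on chromosome 8, with 46 gene names such as SNTG1 and TOX, read −1.86, −1.78, −1.23 and −1.40 in the same array order. The late domain chr6:118300001-134100000, of 15.8 Mb, read −1.47, −1.42, −1.07 and −0.98 and held 58 gene names, among them LAMA2, a laminin chain, and TRDN, a muscle protein of the sarcoplasmic reticulum. The long late domains thus carried 0.76 to 3.67 gene names per Mb, against 9.03 to 23.7 in the long early ones.

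Chromosomes differed in how their length was divided. Chromosome 22 was 87.7% early by domain length and was split into 6 domains, 1.75 per 10 Mb, while chromosome 18 was 29.8% early with 5.15 domains per 10 Mb. Chromosome 4 had the smallest early share, 24.4%, in 78 domains. Windows within 5 Mb of the outermost window of a chromosome were earlier than the rest, with a median of 0.68 (n = 2063) against −0.25 (n = 20886). This held on each array, with medians near the ends of 0.71, 0.61, 0.44 and 0.38 against −0.23, −0.28, −0.18 and −0.10 further in, for automated arrays 1 and 2 and manual arrays 1 and 2.

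Early windows were rich in genes and late windows were poor in them. No probe carried a gene name matched to RefSeq in 12.9% of the early windows, against 43.7% of the late windows. Early windows held 1.61 gene names on average and late windows 0.67. Read the other way, windows without a gene name had a median of −1.58 (n = 6619), windows with 1 name −0.24 (n = 10787), windows with 2 or 3 names 0.99 (n = 4734) and windows with 4 or more names 1.22 (n = 809). The order was the same on each automated array and on manual array 1. On manual array 2 windows with 2 or 3 names (0.96) and with 4 or more (0.90) changed places. Of the windows with 4 or more names, 93.0% were called early, against 43.0% of all windows.

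The share without a gene name fell most in the late groups, and the number of names rose most between groups 6 and 9. In 10 equal groups from the latest to the earliest windows, the share without a gene name was 59.5%, 47.9%, 44.7%, 36.5%, 25.8%, 24.3%, 17.0%, 13.6%, 8.63% and 10.4%. Names per window were 0.43, 0.57, 0.65 and 0.80 in the 4 latest groups and 1.06, 1.37, 1.63 and 1.84 in groups 6 to 9. The earliest group was not the richest in genes: it held 1.72 names per window, against 1.84 in the group before it. With windows split at 0, late windows lacked a gene name more often than early ones by 28.1 percentage points. The gap was 20.1 points after dropping dim probes and 29.1 points on the manual arrays. Early windows also had more probes (above), so a name had more chances to be recorded there, and that part was not tested.

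Probe GC followed timing weakly and varied little on this array (mean 36.5%, SD 1.16 points over windows). Early windows had a mean probe GC of 36.7% and late windows of 36.3%. Across windows, timing correlated with probe GC at r = 0.200 and 0.198 on the automated and 0.157 and 0.124 on the manual arrays. Between windows the value rose by 0.26 and 0.25 per GC point on the automated arrays. Within windows, where neighbouring probes share their timing, it rose by only 0.030 and 0.021 per point, and on the manual arrays by −0.0023 and −0.0052. In the fifth of windows with the highest probe GC, windows with a gene name had a median of 1.06 and windows without of −1.23. In the fifth with the lowest, the medians were −0.055 and −1.77. Gene-bearing windows were the earlier ones in each of the 5 classes of GC.

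**Figure D4:**
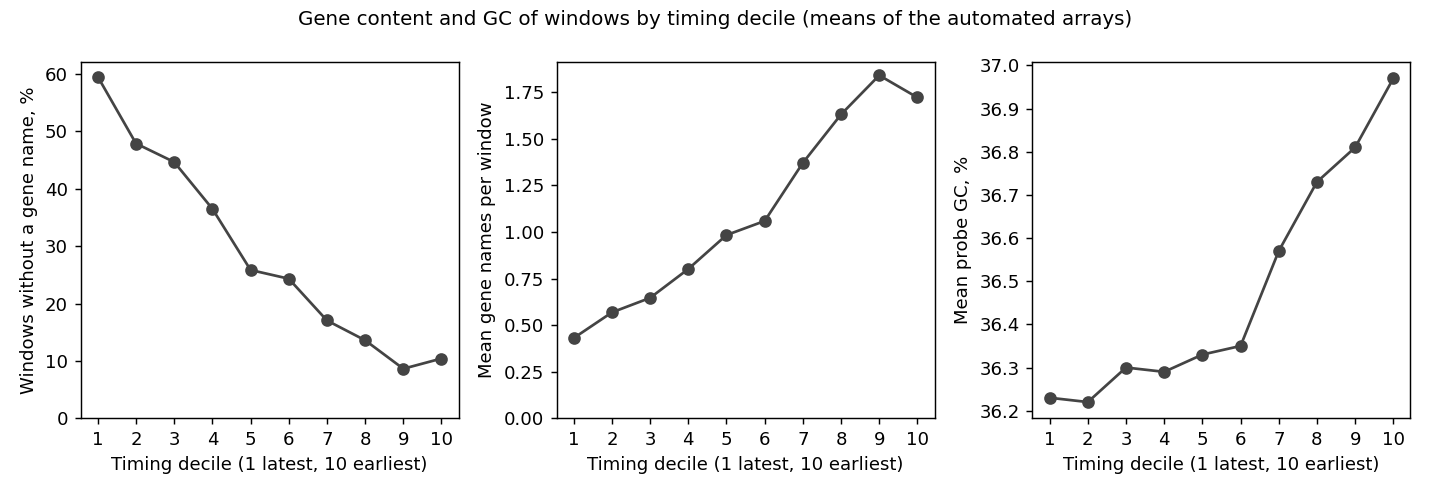
Windows in 10 equal groups from the latest to the earliest (horizontal axis, mean of the automated arrays), with the percentage that held no gene name, the mean number of gene names per window and the mean probe GC in percent. The share without a gene name falls from 59.5% to 8.63% in group 9 and is 10.4% in group 10. Probe GC stays between 36.2% and 36.4% in the 6 latest groups and reaches 37.0% in the earliest.

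At the level of genes the balance shifted to early. Of the 8498 genes tested, 90.5% passed the threshold, and 64.3% were called early (5465) and 26.2% late (2224), and the median gene stood at 0.84. A gene needed 3 probes, so short genes were mostly left out. Both manual arrays had the same sign for 94.0% of early and 83.1% of late genes. Long genes were late: the median was 0.97 for genes whose probes spanned under 100 kb (n = 6007), 0.34 for 100 to 500 kb (n = 2254) and −1.64 for over 500 kb (n = 237). Of the latter, 82.3% were called late and 10.5% early. The manual medians of the longest class agreed in sign, at −1.42. Probe GC did not follow gene span in the same way, at 36.4% in both longer classes. Long noncoding RNA genes (n = 106) had a median of 0.085 and protein-coding genes (n = 8328) of 0.84.

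The earliest genes, by rank on the automated arrays with the same sign on all 4 arrays, ranged from 2.17 to 2.47. They are a choice by value on the automated arrays, which favours automated values above manual ones, and are described without a test. Without background correction the same 12 genes lay between 0.87 and 1.62, and 8 of them moved by over 1.5 times. First came C1orf106 (INAVA), which encodes a regulator of epithelial junctions, at chr1:200860653-200881591, with 2.93 and 2.01 on the automated and 1.77 and 0.88 on the manual arrays. SLC13A2, a sodium-coupled dicarboxylate carrier of kidney and gut, at chr17:26801894-26824826, read 2.21 and 2.35, then 1.53 and 1.01. KIFC3, a minus-end kinesin, at chr16:57798093-57817744, read 2.32 and 2.21, then 1.32 and 1.0. Once dim probes were dropped, C1orf106, SLC13A2 and KIFC3 kept too few probes to be measured. To show what a value rests on, the middle probe of each is printed 5′ to 3′ as deposited, with CG dinucleotides, the sites of cytosine methylation, in capitals.
C1orf106: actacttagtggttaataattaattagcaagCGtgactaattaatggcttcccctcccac
SLC13A2: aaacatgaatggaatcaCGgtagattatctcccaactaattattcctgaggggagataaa
KIFC3: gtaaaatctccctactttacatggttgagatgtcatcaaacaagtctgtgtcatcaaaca
These probes lie at chr1:200865305-200865364, chr17:26816896-26816955 and chr16:57807668-57807727 (hg19). The probe of C1orf106 read 4.96 on automated array 1 and 2.35 on automated array 2, then 2.09 and 0.12 on the manual arrays, so its gene mean leaned on a probe that varied more than 2 log2 units. The probes of SLC13A2 (2.0, 1.61, 1.56 and 1.05) and KIFC3 (2.76, 2.10, 2.20 and 1.34) varied less.

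The other genes of the earliest 12 were PUF60, a splicing factor (2.27 ± 0.18), NBEAL2, needed for platelet granules (2.26 ± 0.35), PDGFRB, the beta receptor for platelet-derived growth factor (2.22 ± 0.27), and TRMU, a mitochondrial tRNA-modifying enzyme (2.22 ± 0.18; SD, n = 2 throughout). They also included POFUT2, a protein O-fucosyltransferase (2.21 ± 0.099), CROCC, the rootletin of centrosomes (2.20 ± 0.35), SBK1, a kinase (2.18 ± 0.77), AAGAB, a clathrin adaptor assembly factor (2.17 ± 0.40), and KCNK12, a potassium channel subunit (2.17 ± 0.15). Of the 12, 9 rested on 3 probes. When only genes with at least 5 probes were ranked, 2 of the 12 stayed, AAGAB and KCNK12, and the list ran from 2.0 to 2.17. It then held POLR1A, the largest subunit of RNA polymerase I, at 2.01 (manual arrays 1.98 and 2.0), and CACNA1S, the calcium channel of skeletal muscle, at 2.03 (2.17 and 1.76). The ranking at the early end was thus set largely by genes with few probes.

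The latest genes, chosen in the same way, ranged from −3.15 to −2.91, and all 12 moved by over 1.5 times, to between −1.78 and −1.4, without background correction. GUF1, a mitochondrial translation GTPase, at chr4:44682432-44701976, read −3.45 and −2.85 on the automated and −2.73 and −2.77 on the manual arrays. LPPR4 (PLPPR4), a brain phospholipid phosphatase-related protein, at chr1:99732105-99764613, read −3.13 and −3.08, then −2.08 and −3.32. HPGD, which breaks down prostaglandins, at chr4:175413193-175439198, read −3.31 and −2.85, then −1.41 and −1.92. All 3 genes were below −1 on all 4 arrays, but none of them kept enough probes to be measured once dim probes were dropped. Their middle probes are shown for comparison with the early probes, in the same format.
GUF1: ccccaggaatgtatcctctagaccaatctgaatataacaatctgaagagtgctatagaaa
LPPR4: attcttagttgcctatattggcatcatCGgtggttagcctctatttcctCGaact
HPGD: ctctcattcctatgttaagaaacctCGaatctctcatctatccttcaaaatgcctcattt
They lie at chr4:44691297-44691356, chr1:99753513-99753567 and chr4:175424203-175424262 (hg19). The GUF1 probe read −3.24, −2.93, −3.57 and −2.32 on automated arrays 1 and 2 and manual arrays 1 and 2. The LPPR4 probe read −3.58, −3.24, −1.05 and −4.46, and the HPGD probe −3.14, −2.99, −2.56 and −2.23. GC was 38.3%, 36.7% and 36.7% in the 3 early probes and 38.3%, 41.8% and 36.7% in the 3 late probes, and CG dinucleotides occurred in both sets. Over all probes of the genes, the median GC was 38.6% in the 12 earliest genes and 36.5% in the 12 latest. The part of GC in the ranking was not tested. Over all autosomal probes, those with no CG had a median of −0.038 (n = 106386), those with 1 had 0.071 (n = 44471) and those with 2 or more 0.38 (n = 10366).

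The latest 12 further held FAM83B, a signalling scaffold (−3.05 ± 0.060), GOLIM4, a Golgi membrane protein (−3.02 ± 0.16), F13B, the carrier subunit of clotting factor XIII (−2.98 ± 0.21), and PLA2G4A, the cytosolic phospholipase that frees arachidonic acid (−2.98 ± 0.027; SD, n = 2 throughout). The others were SLC27A6, a fatty acid transporter (−2.94 ± 0.35), LRRIQ3 (−2.94 ± 0.20), SHFM1, now SEM1, a proteasome subunit (−2.94 ± 0.38), GRXCR1, a protein of inner-ear hair cells (−2.92 ± 0.12), and KCNJ16, an inwardly rectifying potassium channel (−2.91 ± 0.15). This end of the ranking rested on fewer short genes: 4 of the 12 had 3 probes, and 7 of the 12 stayed when at least 5 probes were asked for. PLA2G4A, with 14 probes, read −3.0 and −2.96 on the automated and −2.47 and −2.0 on the manual arrays. LRRIQ3, with 12, read −3.08, −2.80, −2.05 and −2.72. Some of the latest 12, such as GUF1 and SHFM1, belong to functions that every cell uses.

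The gene lists below are read against the 64.3% early and 26.2% late of all genes tested. Genes of the replication machinery itself were mostly early. Of 41 tested, 32 were called early (78.0%) and 5 late (12.2%), with a median of 1.13 against 0.84 for all genes. Nearly all of them span under 100 kb by their probes. Of all genes under 100 kb, 71.4% were early and 19.5% late, with a median of 0.97, so the list stood nearer to genes of its own span. CDC45, part of the helicase that opens DNA at forks, was the earliest of the list at 2.02 and 2.04 on the automated and 1.93 and 1.84 on the manual arrays (chr22:19471381-19503179). MCM10, which helps to start the helicase, and other MCM genes were early too, with MCM10 at 1.39, MCM7 at 1.33, MCM5 at 1.30, MCM4 at 0.87 and MCM2 at 0.85, apart from MCM6, which was not called (0.17, adjusted p = 0.22). RIF1, a regulator of replication timing, lay at the list's median with 1.27 and 1.0, then 1.25 and 1.49.

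The origin recognition complex, which marks origins, was split. ORC1 and ORC2 were both early at 1.55, ORC3 and ORC6 were not called, and ORC4 and ORC5 were late. ORC3 read 0.11 and 0.025 on the automated but 1.06 and 1.08 on the manual arrays, and ORC6 −0.19 and −0.30 but 0.90 and 0.92. ORC4, at chr2:148705701-148771536, was the latest of the list with −2.69 and −1.91 on the automated and −1.62 and −2.51 on the manual arrays (adjusted p = 4.04e-06, limma). ORC5 read −2.32, −2.03, −1.72 and −1.74 in the same array order. The other late members were RPA3, a subunit of the single-strand binding protein (−1.96), DBF4, the activator of the CDC7 kinase (−1.78), and RFC3, a clamp-loader subunit (−0.78). Their partner subunits RPA1 (1.47), RPA2 (0.91), RFC1 (1.26), RFC2 (1.07), RFC4 (0.47) and RFC5 (1.31) were early. Subunits of the same complex thus lay on opposite sides of 0.

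Enzymes of glycolysis and the citric acid cycle were early in 14 of 20 and late in 5, shares near the 64.3% and 26.2% of all genes, with a median of 1.01. IDH3A, a subunit of the NAD-dependent isocitrate dehydrogenase, was earliest with 2.06 and 1.64, then 2.32 and 2.04 on the manual arrays. HK1 (1.57) and HK2 (1.45), the hexokinases that start glycolysis, and PKM2, pyruvate kinase (1.65), were early. All subunits of succinyl-CoA synthetase were called late: SUCLG2 at −2.02 (−2.15, −1.88, −1.69 and −1.78 on automated arrays 1 and 2 and manual arrays 1 and 2), SUCLA2 at −0.78 and SUCLG1 at −0.65. SUCLA2 read −0.54 and 0.54 on the manual arrays and SUCLG1 −0.40 and −0.61. The complex was picked out after its values were seen. SDHD, an anchor subunit of succinate dehydrogenase, lay near the list's median at 0.98.

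Lists for the tissue of origin and for other tissues did not separate cleanly. Of 19 bone and osteoblast genes, 10 were early and 8 late, with a median of 0.33. VDR, the vitamin D receptor, was the earliest, with 1.91, 1.8, 1.9 and 1.6 on automated arrays 1 and 2 and manual arrays 1 and 2. ALPL, the alkaline phosphatase of mineralising bone, was early at 1.44, and the Wnt co-receptors LRP5 and LRP6 at 1.61 and 1.04. CDH11, the osteoblast cadherin, was late at −1.78, and POSTN, periostin of the bone surface, at −1.86. RUNX2, the transcription factor that starts the osteoblast programme, was called late at −0.48 and −0.30 on the automated arrays but read 0.19 and 0.48 on the manual arrays. BMP6, a bone morphogenetic protein, lay at the median with 0.42, 0.24, 1.01 and 0.43.

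Genes of blood cells, another lineage, were early in 16 of 20 and late in 3, with a median of 0.88. The early count fell when either automated array was left out, where the remaining automated array was assumed to vary like the manual pair. It fell over all genes as well. LMO2, a transcription cofactor of blood stem cells, was the earliest at 1.54, 1.61, 0.59 and 1.62, and RUNX1 lay near the median at 0.83, 0.86, 0.71 and 0.52. ANK1, the ankyrin of the red cell membrane skeleton, was early at 1.47, and IKZF1, a lymphoid transcription factor, was late at −0.44. EBF1 and LCP2 were early on the automated arrays (0.59 and 0.79) and below 0 on both manual arrays.

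Of 14 genes for proteins secreted by liver, 7 were early and 5 late, with a median of 0.30. CRP, C-reactive protein, was the earliest at 1.47, 1.15, 1.30 and 1.14, and F13B, of the latest 12, the lowest at −3.13, −2.83, −0.83 and −3.05. GC, the vitamin D binding protein, was late at −2.52. F5, clotting factor V, nearest the median, was not called (−0.17, adjusted p = 0.23). The share called early was 80.0% for blood, 50.0% for liver and 52.6% for bone, against 64.3% for all genes. These shares moved with the setting. By the window of the middle probe liver stood at 63.3% (19 of 30) against 64.1% of all such windows. With all 4 arrays in the fit, 12 of the 20 blood genes were called early, against 5338 of all 8498 genes. The assay measures DNA, so markers of cell identity could not be checked by expression.

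Genes of neuronal signalling and adhesion were late as groups. Of 38 receptor genes for GABA, glycine and glutamate, 26 were late and 9 early, with a median of −1.61. The GABA receptor genes clustered on chromosome 4 were late, with GABRA2 at −2.65 (−2.68, −2.62, −2.17 and −2.63 on automated arrays 1 and 2 and manual arrays 1 and 2), GABRG1 at −2.41, GABRA4 at −2.33 and GABRB1 at −1.79. Such clustered genes share a domain and are not independent. The early members included GABRR1, a rho subunit (1.59, 1.20, 1.16 and 1.24), the kainate receptor gene GRIK5 (1.25) and GABBR2, a subunit of the metabotropic GABA receptor (0.92).

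Of 43 genes for neuronal adhesion and synapse organisation, 37 were late and 4 early, with a median of −2.21, the lowest of the lists with at least 10 genes tested. Many of these genes span over 500 kb by their probes, and 82.3% of all genes over 500 kb were called late. CDH8, a type II cadherin, was the latest at −2.65, −2.69, −1.66 and −1.54. LRFN5, a synaptic adhesion molecule, lay at the median with −2.34, −2.08, −1.66 and −2.08. The contactins CNTN1, CNTN3, CNTN4, CNTN5 and CNTN6 lay between −2.48 and −2.12, whereas CNTN2 was early at 1.34 (1.21, 1.47, 2.13 and 1.54). Neurexin genes divided in the same way: NRXN3 was late at −1.77 and NRXN2 was early at 1.5 (1.37, 1.64, 1.23 and 1.0). NRXN2 spans 100.5 kb by its probes and NRXN3 1452 kb. Paralogues of the same family therefore lay on opposite sides of the profile. All 43 genes had the automated sign on both manual arrays.

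Giant genes of common fragile sites, regions that break when replication is slowed, were late in 21 of 22 and early in none. The probes of each span over 500 kb. Their median was −1.91, against −1.64 for all genes over 500 kb, of which 82.3% were called late. FHIT, at the most fragile site in lymphocytes, read −2.29 and −2.01 on the automated and −2.08 and −2.11 on the manual arrays over 125 probes (chr3:59740155-61231349). WWOX, at chr16:78143693-79246026, read −1.90, −1.87, −1.33 and −1.55 over 83 probes. IMMP2L, a mitochondrial peptidase gene, was the latest at −2.51, −2.50, −2.30 and −1.97. LRP1B (−2.31), PARK2 (−2.01) and MACROD2 (−1.88) were late too. GPHN, gephyrin of inhibitory synapses, was the exception, with −0.071, −0.21, 0.15 and 0.090 (adjusted p = 0.30, limma).

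Of 22 genes of the p53 and RB pathways and of telomere maintenance, 13 were early and 5 late, with a median of 0.53. TERF2, which protects telomere ends, was the earliest at 1.83, 1.76, 1.48 and 1.33. Its partner TERF1 was late at −0.39 and POT1, which binds the single-stranded telomere end, at −2.04 (−2.26, −1.82, −2.49 and −2.25). PML, whose nuclear bodies gather at telomeres in cells of the alternative pathway, was early at 1.58, and the helicase gene BLM at 1.38. SMC6, of a complex that acts in recombination, was the latest with −2.18, −1.90, −1.42 and −1.63. CDK4 (1.43), MDM2 (0.79) and CCNE1 (0.57, nearest the median) were early. RB1 was not called (−0.012 and −0.20 on the automated arrays) and read 0.63 and 0.55 on the manual arrays. E2F3 was late on the automated arrays at −1.07 and −0.60 and read 0.72 and 0.73 on the manual arrays.

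**Figure D5:**
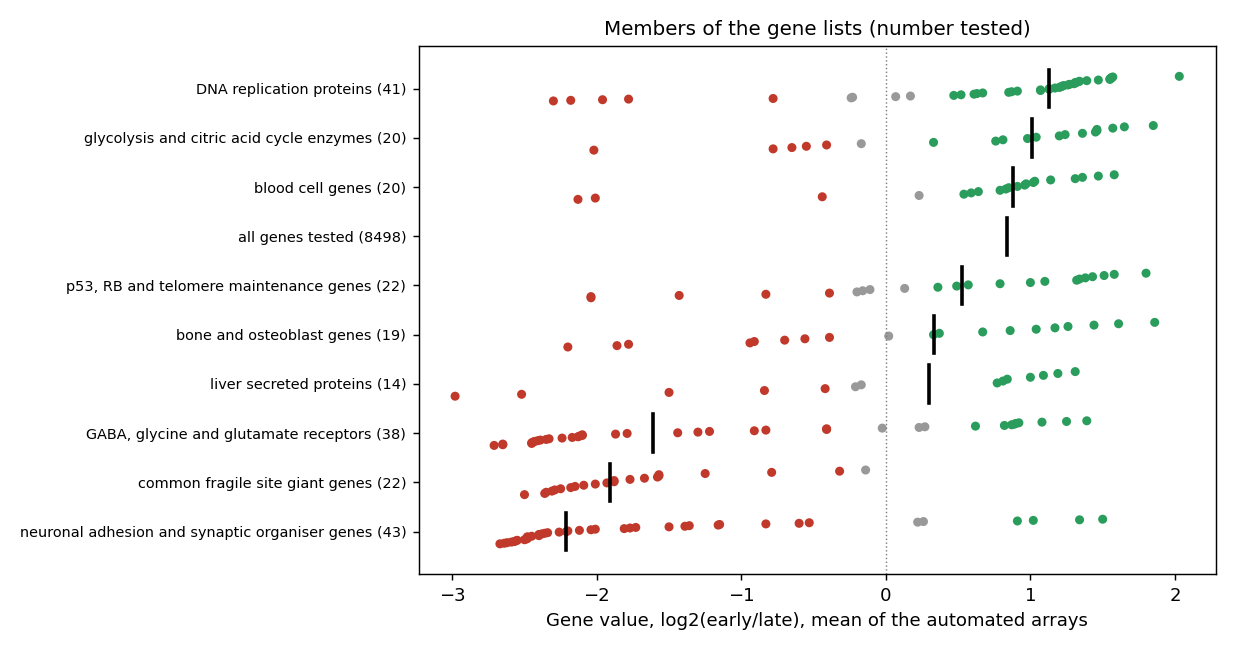
Value of each tested gene, log2(early/late) as the mean of the automated arrays (horizontal axis), by list, with the number tested in brackets. Green points were called early, red points late and grey points neither at an adjusted p of 0.05, and black bars are medians. The neuronal and fragile-site lists lie mostly left of −1, while most members of the replication list lie right of 0. The median of all 8498 genes, 0.84, is drawn for comparison.

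Most genes of 3 further lists were too short for 3 probes and were described by the 100-kb window that holds their middle probe, a choice made after the data were seen. Over the windows of all named genes, 64.1% were early and 27.0% late. Of 59 windows with genes of cytosolic ribosomal proteins, 51 were early and 5 late, with a median of 1.17. The highest, that of RPS3, read 1.49, 1.74, 1.20 and 0.78, and the lowest, that of RPS12, −1.14, −1.40, −0.56 and −0.12. The single ribosomal gene with 3 probes, RPL5, was early at 0.98 and 1.14 on the automated arrays, with −0.022 and 1.04 on the manual arrays.

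The 34 replication-dependent histone genes that could be placed in a window fell into 9 windows, of which 8 were late and 1 early, with a median of −0.81. Histone genes are transcribed in S phase to package new DNA. Most sit in a large cluster on chromosome 6, and its window with HIST1H1A, HIST1H2AB and HIST1H3B was the latest at −2.12, −1.95, −1.20 and −1.11. The chromosome 1 cluster with HIST2H2BE was the early window, at 0.90, 0.73, 0.56 and 0.82. The windows of HIST1H1D (−0.35 and −0.37 on the automated arrays) and of HIST1H2AH (−0.63 and −0.68) read above 0 on both manual arrays.

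Of 44 windows with olfactory receptor genes, 29 were late and 13 early, with a median of −0.78. Early windows included a cluster on chromosome 17, with OR1E2 at 0.99 and OR3A1 at 1.11, and the window of OR2C1 on chromosome 16 at 1.52. The latest was that of OR51E2 on chromosome 11 at −3.0, −2.6, −1.23 and −1.02. The olfactory genes of the short arm of chromosome 11 lie side by side, and several of their windows were late on the automated arrays only: that of OR52A1 read −2.19 and −1.98 against 0.15 and 0.65, and that of OR51I2 −1.28 and −1.48 against 0.86 and 0.88. The median of the list's windows on the manual arrays was accordingly nearer to 0, at −0.18 and −0.031.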

How the data were processed

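Spot intensity values of each channel were deposited as scanner output, written by Agilent Feature Extraction 11.5.1.1 under a CGH (array comparative hybridization) protocol, per the file headers. The submitters' processing notes name version 9.1. The intensity columns used were the processed signals, which per the file headers are background-subtracted with a spatial detrend and linearly dye-normalized, and for alternatives the mean signals and median backgrounds. Probe positions (hg19) and names came from the deposited files. Names were kept where they matched a symbol or synonym of RefSeq on the same chromosome (16165 of 23770). Whether a probe is exonic or intronic was not analysed here.

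Green over red was taken as log2, with no loess or quantile step, since most probes of a timing profile carry signal. Each array was centred on its median autosomal probe, control, non-uniform and manually flagged spots were dropped, saturated spots were kept and repeated probes averaged. Windows of 100 kb and genes needed 3 probes on both automated arrays. limma 3.58.1 in R 4.3.3 (lmFit, eBayes) tested the automated mean against 0, with Benjamini-Hochberg adjusted p under 0.05. Chromosomes, domains and gene content were described without a test. Domain stretches were broken at gaps over 500 kb.

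Named were the 12 earliest and 12 latest genes with the same sign on all 4 arrays (at most 1 per Mb), the highest, lowest and median member of each list, the 3 longest domains of each kind, the 2 highest and 2 lowest windows and the controls; others in the text were chosen after their values were seen. The gene lists and all members were chosen with earlier results of these data known, so no list is independent evidence. Alternatives changed background correction, centring, dim-probe and spot filters, windows, probe minimum, call rule, smoothing and arrays. The number of arrays limits the precision. Some genes that this rule names are not reported here. Chromosomes X and Y stayed out of the tests, and the other cell line was not used.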

Additional observations from a re-analysis of the deposited data

Results flagged for a closer look

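These results lay on opposite sides of 0 on the automated and the manual arrays, both arrays of each kind taken alone. The differences were not tested, and handling and slide cannot be told apart.

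Chromosome 1 stood at −0.017 on the automated and 0.08 on the manual arrays, and chromosome 11 at −0.028 and 0.064. Among genes of the lists, RUNX2 stood at −0.39 and 0.33, E2F3 at −0.83 and 0.72, DMP1, a matrix protein of bone, at 0.37 and −0.76, EBF1, a B-cell transcription factor, at 0.59 and −0.53, and LCP2, an adaptor of T-cell signalling, at 0.79 and −0.42. Genes not called on the automated arrays were ORC6 (−0.24 and 0.91), RB1 (−0.11 and 0.59), SMC5, of the complex of SMC6 (−0.20 and 0.33), F5 (−0.17 and 0.35) and GPHN (−0.14 and 0.12). EBF1 rested on 36 probes over 401 kb.

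Among windows of short genes, those of HIST1H1D (−0.36 automated, 0.43 manual) and HIST1H2AH (−0.66 and 0.22) lay in the histone cluster of chromosome 6. The window of RPL14, not called, stood at −0.23 and 0.23. The window of OR4F6 stood at −0.67 and 0.59. The remaining windows hold olfactory receptor genes of chromosome 11 between 5.1 and 5.8 Mb: OR52A1 (−2.09 and 0.40), OR51B4 (−1.54 and 0.64), OR51I2 (−1.38 and 0.87), OR52B6 (−0.92 and 0.81) and OR56B1 (−1.40 and 0.82). Farther out in the cluster, the windows of OR51E2 (−2.80) and OR52K1 (−1.94) were below 0 on all 4 arrays.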

How the results depend on the processing

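The counts of windows and genes called, the domains, the chromosome gap, gene content, the control loci and the lists gave 198 values under alternatives. Of these, 156 stayed within 1.5 times (counts) or 1 SD between the automated arrays (values) and 42 moved. Counts and domain sizes cannot change sign. The chromosome gap, the gene-content gap and the control loci could, and all kept their sign. The order of the domain medians did turn with 50-kb windows and with dim probes dropped (below). The 24 named genes gave 229 values, all with the same sign and, where both automated arrays were in the fit, past the threshold. They were chosen as the most extreme genes with the same sign on all 4 arrays. Their sign under other sets of these arrays was therefore fixed in advance. Once dim probes were dropped, 11 of the 24 kept too few probes to be measured, among them C1orf106, SLC13A2, KIFC3, GUF1, LPPR4 and HPGD. Without background correction the 12 earliest fell to between 0.87 and 1.62 and the 12 latest lay between −1.78 and −1.4; 8 and 12 of them moved by over 1.5 times, and with normexp 4 and 8 did. The count of early and late windows was 20909, and 9863 with 250-kb windows, where fewer were tested. For genes it was 7689, 5063 with a mean of at least 1 in size and 4774 with at least 5 probes.

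With normexp, the gap of chromosomes 22 and 4 was 1.34, the gene-content gap 27.9 points, BMP1 0.95 and DPPA2 −1.71. Without background correction these were 1.13 (gap), 0.63 (BMP1) and −1.52 (DPPA2). Centring on the mean gave a late median of 1.7 Mb, a gene-content gap of 28.2 points and DPPA2 at −1.68. Dropping dim probes gave 1.5 Mb, 1.4 Mb, 1.54, 20.1 points, 1.06 and −2.03 (early median, late median, chromosome gap, gene content, BMP1, DPPA2). Removing the within-window GC slope, added after seeing the data, gave a late median of 1.7 Mb. With all 4 arrays in the fit, with or without the block, 12 blood genes were early. Over all 8498 genes, 5338 were early without the block and 5257 with it. The manual arrays gave 1.3 Mb early and 1.5 Mb late, 1.61, 29.1 points, 0.88 and −2.03. Medians were 1.33 and 0.95 Mb with 50-kb windows, 0.8 and 1.0 Mb without smoothing and merging (1511 domains) and 1.9 and 2.4 Mb with runs under 5 windows merged. The gene-content gap was 34.5 points in 250-kb windows. By the window of the middle probe, added after seeing the data, where more genes are measured, early members numbered 24 of 34 (glycolysis and citric acid cycle), 19 of 33 (bone), 30 of 37 (blood), 19 of 30 (liver) and 22 of 31 (p53, RB and telomere).

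Leaving out each automated array gave 17500 to 17577 windows, 5918 to 5949 genes, 969 to 1017 domains, early medians of 1.5 to 1.6 Mb and late medians of 1.7 to 1.8 Mb, a chromosome gap of 1.87 to 1.93, gene-content gaps of 27.9 to 28.0 points, BMP1 from 1.26 to 1.87, DPPA2 from −1.95 to −1.89, and 10 to 13 early blood genes. For the chromosome gap, BMP1 and DPPA2, the array that remains always lies within 1 SD of the mean of both. Their place among the values that stayed was therefore fixed in advance here. The shared replicate number did not pair the arrays: deviations of same-numbered arrays correlated at −0.019, a number given here as a check only. With all 4 arrays and the number as a replicate block, 19514 windows and 7145 genes were called, against 19865 and 7283 without the block. Saturated spots were kept throughout, so the alternative on spot flags only restored non-uniform spots. Signal over background limits the manual arrays most, in the red channel.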

Other observations

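Chromosome X, left out of the tests, was late as a whole. Its 1246 windows had means of −0.84 and −0.78 on the automated and −0.60 and −0.66 on the manual arrays. The automated mean of −0.81 ± 0.042 (SD, n = 2) lay beside that of chromosome 8 (−0.80). Of its windows, 31.5% were above 0, and they held 0.80 gene names each. Median centring used autosomes only, so these values did not enter the scale.

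Called windows whose manual arrays both had the other sign were mostly scattered. The 585 such windows with the automated arrays of a single sign formed 437 runs, 339 of them of a single window, and 5 runs held at least 5 windows. The longest, chr4:41400001-42000000, read −1.30 and −1.02 on the automated and 0.84 and 0.61 on the manual arrays. The run at chr11:5600001-6100000 lies in the olfactory receptor cluster and read −1.03, −1.07, 0.32 and 0.63. The run chr1:198100001-198600000 went the other way, with 1.04, 0.72, −0.54 and −0.67. The others of at least 5 windows lay on chromosome 18 (−0.57 automated, 0.58 manual) and on chromosome 10 (−0.46 and 0.40).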
